A study of Sus scrofa with 4 samples.

Results

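A set of 10 genes was examined, namely the apolipoprotein genes APOA1, APOA2, APOA4, APOB, APOC2, APOC3, APOE, APOH and APOM together with MTTP, in the liver of piglets fed with or without added L-carnitine. They were chosen as a named set of lipoprotein genes, and every probe set of the Affymetrix porcine array annotated with one of these symbols alone was taken. This gave 11 probe sets for the 10 genes (APOE had a bright and a dim one) out of 23999 probe sets tested, of which 10069 carried 1 gene symbol and named 6765 genes. The pigs were male (German Landrace x Large White) x Pietrain crossbreds, killed at 7 weeks of age 2.5 h after a meal. All received the same basal diet for 21 days. The 8 carnitine pigs had 500 mg L-carnitine added per kg of diet and the 8 control pigs had none. Each array held liver RNA pooled from 4 pigs, so each diet was represented by 2 pools and the arrays did not measure the spread between single pigs.

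Apolipoproteins are the protein part of the particles that carry lipid in blood. APOB forms the backbone of very-low-density lipoprotein (VLDL), and MTTP, the microsomal triglyceride transfer protein, loads lipid onto it in the endoplasmic reticulum. The smaller apolipoproteins exchange between particles, where they hold the particle together, switch lipolytic enzymes on or off, or bind receptors. APOA4 is found on chylomicrons, on high-density lipoprotein (HDL) and free in plasma, and in mammals much of it comes from the small intestine. L-carnitine carries long-chain fatty acids into mitochondria for oxidation.

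APOA4 had a higher signal in each carnitine pool than in either control pool, and it was the member with the widest difference between the diets. MTTP was also higher in both carnitine pools, by a smaller factor. The other apolipoproteins lay close to one another and mostly a little lower in the carnitine pools (APOA1 and APOB passed to the other side of 0 after quantile normalization), with APOH the lowest of them. None of the 11 probe sets passed an adjusted p of 0.05 in the limma fit over all 23999 probe sets, in which 1 probe set in all (0.00417%) did. Without adjustment, 2 members were past 0.05 upward (APOA4 and MTTP) against 4.72% of all probe sets, and 1 was past it downward (APOH) against 3.93%. A one-factor analysis of variance put 1 member (APOH) past an unadjusted 0.05, against 7.01% of all probe sets, and 0 past the adjusted threshold. Because only 2 pools stood on each side, an exact permutation test could not give a two-sided p below 0.333.

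Signals are MAS5 values, a linear brightness in arbitrary units that sums up the probes of a probe set. The APOA4 probe set read 2888 in carnitine pool 1, 18272 in carnitine pool 2, 184 in control pool 1 and 1042 in control pool 2. Both carnitine pools were higher than both controls, and within each diet pool 2 was far above pool 1. The mean was 10580 ± 10878 (SD, n = 2) in the carnitine pools and 613 ± 607 (SD, n = 2) in the controls. Across the 4 carnitine-to-control pairs the fold ran from 2.77 through 15.7 and 17.5 to 99.3. On the log2 signal scale the difference was 4.05 (SE 0.98, 95% interval 1.75 to 6.36), which is 16.6-fold with an interval of 3.35 to 82.1, and the adjusted p was 0.395. A single pool decided much of this size: leaving out carnitine pool 2 gave a log2 difference of 2.72, leaving out control pool 1 gave 2.80, leaving out control pool 2 gave 5.30 and leaving out carnitine pool 1 gave 5.38. The limma interval of APOA4 does not rest on its own pools alone, since its spread was moderated toward that of probe sets of similar signal. In the analysis of variance, which uses only its own pools, APOA4 did not pass the unadjusted threshold (adjusted p = 0.785). Without the variance trend its limma adjusted p was 0.704. In liver RNA from mixed cells, more RNA per cell and more cells of a type cannot be told apart.

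**Figure D1:**
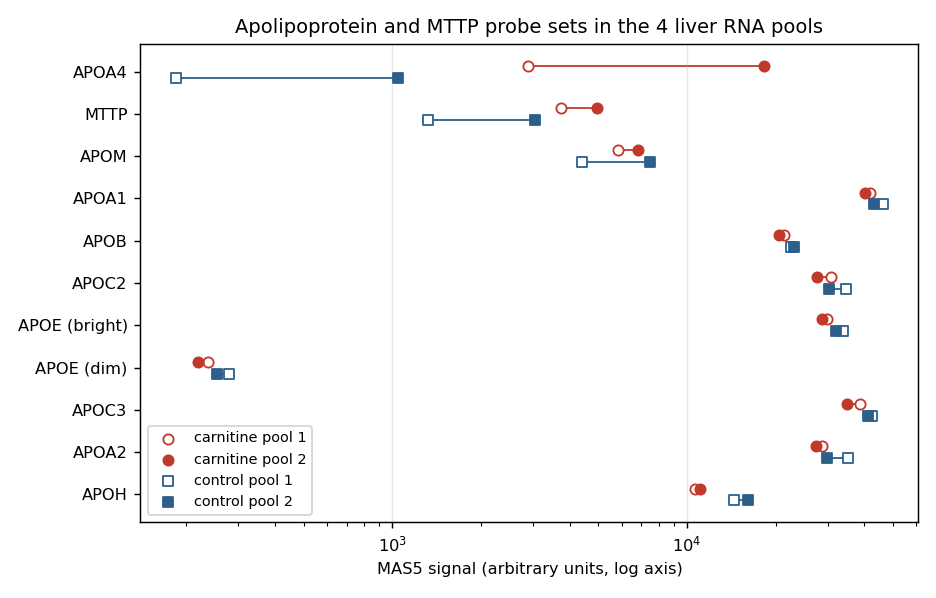
MAS5 signal (arbitrary units, log axis) of each member probe set in the 4 liver RNA pools, with a line joining the pools of one diet. The APOA4 points span 184 to 18272, with both carnitine pools to the right of both controls, whereas the carnitine and control points of the 6 brightest members lie close together.

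APOA4 also stood apart in how far pools of the same diet differed. Carnitine pool 2 was 6.33 times carnitine pool 1, and control pool 2 was 5.66 times control pool 1. Among the 11999 probe sets with a mean signal above the median, the carnitine pools differed at least that much in 4 and the control pools in 33, APOA4 counted in each. No other probe set met both limits. The limits were the values of APOA4 itself, so this is a description only. The median fold between pools there was 1.17 for carnitine and 1.25 for control. The other apolipoproteins, by their brightest probe sets, differed between pools by 1.04-fold to 1.18-fold in the carnitine diet and by 1.03-fold to 1.69-fold in the control diet. In rank, 13 of the 23999 probe sets had a log2 difference at least that of APOA4, of which 3 were above the median signal with APOA4 counted, and 248 probe sets had an unadjusted p as small as or smaller than its own.

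**Figure D2:**
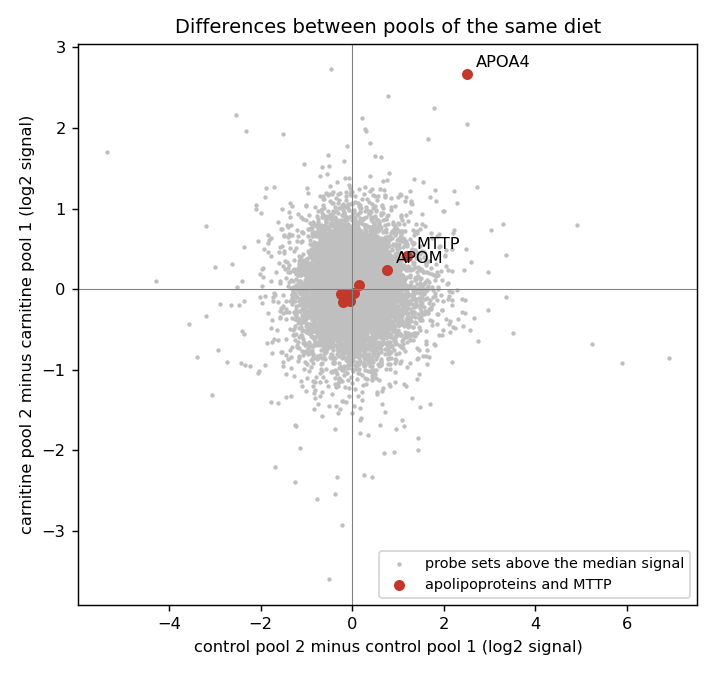
Each point is a probe set above the median signal, placed by the log2 difference between the control pools (x axis) and between the carnitine pools (y axis), with the members in red. APOA4 lies alone at the upper right, at 5.66-fold and 6.33-fold, and MTTP follows along the control axis at 2.31-fold.

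MTTP gave signals of 3721 and 4954 with carnitine against 1322 and 3052 without it. Both carnitine pools were higher, though carnitine pool 1 exceeded control pool 2 by only 1.22-fold while the widest pair was 3.75-fold apart. The mean was 4337 ± 872 (SD, n = 2) against 2187 ± 1223 (SD, n = 2). The log2 difference was 1.10 (SE 0.38, 95% interval 0.20 to 1.99), or 2.14-fold, with an adjusted p of 0.490. Control pool 1 was low for this gene, 2.31-fold under control pool 2, and without it the log2 difference was 0.49, while without control pool 2 it was 1.70. APOA4 and MTTP were the 2 member probe sets with a log2 difference of at least 2-fold (the arithmetic means of MTTP lay slightly closer), a size reached by 16.0% of all probe sets and by 3.65% of those above the median signal.

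APOB, the partner of MTTP, gave signals of 21314 and 20586 with carnitine against 22521 and 23100 without it. Its log2 difference was -0.12 (SE 0.19, 95% interval -0.57 to 0.32, adjusted p = 0.894), lower in both carnitine pools as deposited but 0.030 in the other direction, with overlapping pools, after quantile normalization. The interval of APOB ended below a difference of 2-fold in either direction. The MTTP interval, from 1.15-fold to 3.97-fold, was the wider of the pair.

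The 4 members best known from HDL were APOA1, APOA2, APOM and APOE, of which APOE also serves as a ligand of the LDL receptor family on hepatocytes. APOA1, the main structural protein of HDL and an activator of LCAT, gave signals of 41885 and 40073 with carnitine against 46255 and 43046 without it. It was lower in both carnitine pools as deposited, with a log2 difference of -0.12 (SE 0.20, adjusted p = 0.901) that turned to 0.0070 with overlapping pools after quantile normalization. APOA2, a further structural protein of HDL, gave signals of 28673 and 27429 against 35269 and 29939. Both of its carnitine pools were lower, by 0.21 on the log2 scale (SE 0.20, adjusted p = 0.814), with control pool 1 the highest. The bright APOE probe set gave signals of 29855 and 28706 with carnitine against 33947 and 32027 without it. The dim APOE probe set gave 236 and 218 against 279 and 255. Both APOE probe sets were lower in both carnitine pools, with log2 differences of -0.17 (SE 0.20, adjusted p = 0.846) and -0.23 (SE 0.27, adjusted p = 0.850). What part or strand of the transcript the dim probe set reads was not determined, so it is not taken as a further reading of APOE. APOM, a lipocalin of HDL that carries sphingosine phosphate, gave signals of 5818 and 6838 with carnitine against 4413 and 7476 without it. The diets overlapped for APOM, as the control pools held both its lowest and its highest value, and the log2 difference was 0.13 (SE 0.27, adjusted p = 0.919), or -0.25 without control pool 1.

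Both measured C apolipoproteins act on lipoprotein lipase, APOC2 as its cofactor and APOC3 as its inhibitor. APOC2 gave signals of 30811 and 27502 with carnitine against 34607 and 30222 without it. Carnitine pool 1 lay above control pool 2, so the diets overlapped, and the log2 difference was -0.15 (SE 0.21, adjusted p = 0.873). APOC3 gave signals of 38607 and 34880 against 42386 and 41056. Both of its carnitine pools were lower, with a log2 difference of -0.18 (SE 0.20, adjusted p = 0.837), and the pools overlapped after quantile normalization.

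APOH, a plasma glycoprotein that binds anionic phospholipid, differed most among the member apolipoproteins other than APOA4. Its signals were 10627 and 11039 with carnitine against 14477 and 16113 without it. Both carnitine pools were lower, every pair by 1.31-fold to 1.52-fold, and pools of the same diet differed by no more than 1.11-fold. The mean was 10833 ± 292 (SD, n = 2) against 15295 ± 1156 (SD, n = 2), a log2 difference of -0.50 (SE 0.19, 95% interval -0.94 to -0.057, adjusted p = 0.526). It lay between -0.57 and -0.42 when single pools were left out.

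Set against the 8 other apolipoproteins by their brightest probe sets, APOA4 stood well outside their range. Their log2 differences ran from -0.50 (APOH) to 0.13 (APOM) with a median of -0.16, so APOA4 lay 4.21 above that median. The difference is a description with no test, since APOA4 was known to differ when the comparison was set up. It ran from 2.83 to 5.60 when single pools were left out. The 95% intervals of all 8 ended short of 2-fold in either direction, so a signal difference of that size was outside them, while smaller differences did not pass the adjusted threshold. Of the 8, 6 were above the 99th percentile of signal. Whether signal follows RNA amount in proportion at that brightness was not tested.

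**Figure D3:**
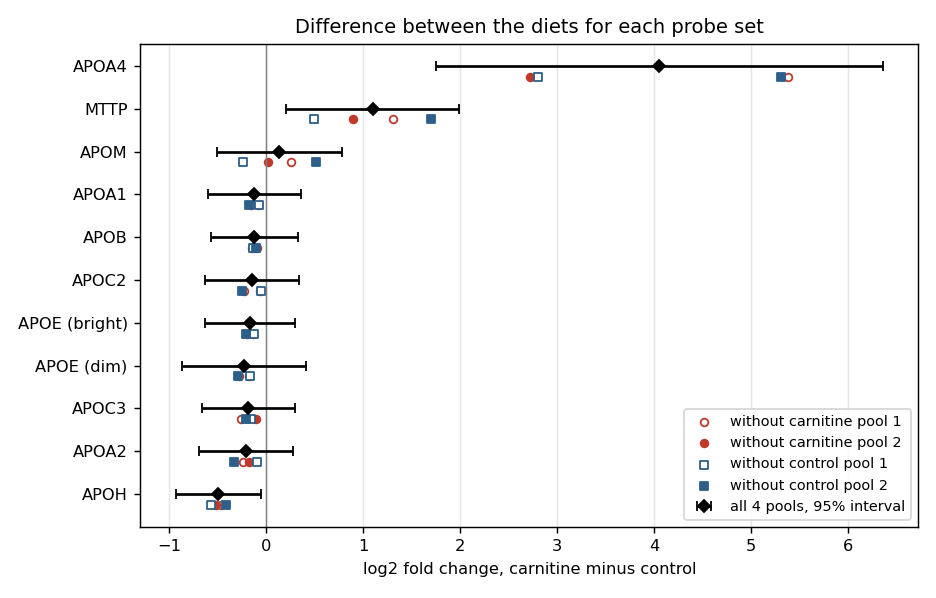
Log2 fold change (carnitine minus control) of each member probe set with its 95% limma interval (black) and the values when single pools were left out (coloured). APOA4 (4.05) and MTTP (1.10) lie above 0 under every omission, APOM crosses 0, and the remaining probe sets lie between -0.57 and 0, although APOA1 and APOB pass just above 0 after quantile normalization.

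Counted over all 11 probe sets, 2 were higher in both carnitine pools, 7 were lower in both (4 after quantile normalization, and 6 as deposited without the dim APOE probe set) and 2 overlapped. Over all probe sets, 19.2% were higher without overlap and 20.4% lower, and above the median signal the shares were 21.9% and 22.0%. The lower members were mostly among the brightest probe sets of the array. Of the 240 probe sets above the 99th percentile of signal, a set looked at after the values were seen, 114 (47.5%) were lower without overlap, and their median log2 difference was -0.13. The members in that set were APOA1, APOA2, APOB, APOC2, APOC3 and APOE. After quantile normalization the median of the 240 was -0.0047, and 4 member probe sets, those of APOA2, APOE and APOH, were still lower without overlap. APOH (98.85th percentile), APOM (97.5th), MTTP (94.7th) and APOA4 (91.3rd) were dimmer than that set, as was the dim APOE probe set (63.0th).

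Signs of RNA integrity on the arrays went with the diet. For GAPDH, the control probe set at the 3′ end was 18.7 and 16.1 times as bright as that at the 5′ end in the carnitine pools, but 12.5 and 11.6 times in the control pools. For actin the factors were 157 and 136 with carnitine against 91.2 and 86.7. Its part in the member differences was not tested. The median signal of the arrays lay between 109 and 114, and the median log2 difference of all probe sets was -0.018.

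The tissue label was checked on markers fixed for 8 cell types. Of 16 hepatocyte markers, 13 had a probe set and all 13 were above the median signal, and their summed signal was 343117 and 320671 with carnitine against 375395 and 332745 without it. For enterocytes, which make APOA4 in the gut, 15 of 28 markers had a probe set and 13 of those were at or below the median signal. FABP2, the intestinal fatty acid binding protein, gave between 18.8 and 23.3 in every pool. The summed enterocyte signal was 4340 and 3808 with carnitine against 7268 and 4568 without it, but 7 of the 15 markers were above 0 and 8 below, with a median log2 difference of -0.074. Most of the sum came from the 2 markers above the median signal. ANPEP was lower with carnitine, at 2835 and 2292 against 5691 and 3318, whereas VIL1 overlapped, at 1110 and 1109 against 1126 and 640. Which cells gave the signal of ANPEP and VIL1 was not determined. Among the dimmer markers TFF3 was lower in both carnitine pools, at 62.6 and 17.8 against 108 and 332 (log2 difference -2.5). SLC15A1 was higher in both, at 28.5 and 29.6 against 25.6 and 9.9. Without ANPEP, left out after its values were seen, the enterocyte sums overlapped, at 1505 and 1516 against 1577 and 1250. The summed signal of the other lists ran, in carnitine against control pools, from 12223 to 13381 against 13182 to 13893 for Kupffer cells (9 of 13 markers), from 7009 to 7673 against 6889 to 15690 for stellate cells (10 of 12) and from 3394 to 5092 against 4479 to 6567 for endothelial cells (10 of 12). It ran from 2787 to 3462 against 2336 to 8436 for cholangiocytes (6 of 8), from 676 to 812 against 813 to 1223 for lymphocytes (9 of 13) and from 781 to 1267 against 1534 to 2162 for erythroid cells (4 of 9). The highest stellate, endothelial, cholangiocyte and erythroid sums were all in control pool 2, and the highest Kupffer cell and lymphocyte sums in control pool 1. SPP1 read 6231 in control pool 2. Without SPP1, left out after its values were seen, the cholangiocyte sums were 2080 and 1905 against 1416 and 2205. Of all 6 cholangiocyte markers, SPP1 included, 3 were above 0 and 3 below. The sums of lymphocyte and erythroid markers were lower with carnitine without overlap, for lymphocytes only by 812 against 813 at the nearest pools. Of the 9 lymphocyte markers 4 were above 0 and 5 below, and of the 4 erythroid markers 1 was above and 3 below. The one above was HBB, which overlapped at 310 and 299 against 278 and 301. The part of these cells in the member differences was not tested.

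The genes that lie beside APOA4 in the pig genome gave smaller differences, in both directions. In the RefSeq gene table of assembly Sscrofa11.1 the order is BUD13, ZPR1, APOA5, APOA4, APOC3, APOA1, SIK3 and PAFAH1B2, and APOA5 had no probe set named here. ZPR1, a zinc finger protein gene, gave signals of 1708 and 1996 with carnitine against 1029 and 1437 without it, a log2 difference of 0.60 (adjusted p = 0.533). On the far side, SIK3, a salt-inducible kinase, gave signals of 490 and 400 against 691 and 1293, lower in both carnitine pools by 1.10 on the log2 scale (adjusted p = 0.441). BUD13 was lower in both carnitine pools, at 196 and 211 against 241 and 318, and the bright PAFAH1B2 probe set overlapped, at 1580 and 1701 against 1681 and 1400. The other 2 PAFAH1B2 probe sets, both dim, were higher in both carnitine pools, with log2 differences of 0.81 and 0.69. APOC3 and APOA1, the nearest neighbours with a probe set, had the small differences given above, and that of APOA1 changed sign under quantile normalization. In the APOE and APOC2 cluster, NECTIN2 and the bright CLPTM1 probe set overlapped between the diets.

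The genes whose 4-pool pattern was most like that of APOA4 were sought among 6051 probe sets with 1 symbol and a signal above the median. The measure was the Euclidean distance between log2 signals, each centred on the gene's own mean over the 4 pools, and a gene with equal signal in all pools would lie 4.81 away. The nearest was ABCD3, the peroxisomal half-transporter of fatty acyl-CoA, at 2.40, with signals of 1129 and 2920 with carnitine against 287 and 727 without it. Like APOA4, ABCD3 was higher in pool 2 of both diets, by 2.59-fold and 2.54-fold. PTGES3, a co-chaperone, followed at 2.47 (355 and 328 against 28.6 and 48.4), and PLIN2, a coat protein of lipid droplets, at 2.52 (405 and 2121 against 196 and 336). ANGPTL4, an inhibitor of lipoprotein lipase, lay at 2.78, and the heat shock gene HSP70.2 at 2.79 with 2166 and 2266 against 331 and 713. All 5 were higher in both carnitine pools than in either control pool, which follows largely from their choice by distance to APOA4. The range of each over the 4 pools was narrower than that of APOA4. With 4 points these distances are descriptions only.

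**Figure D4:**
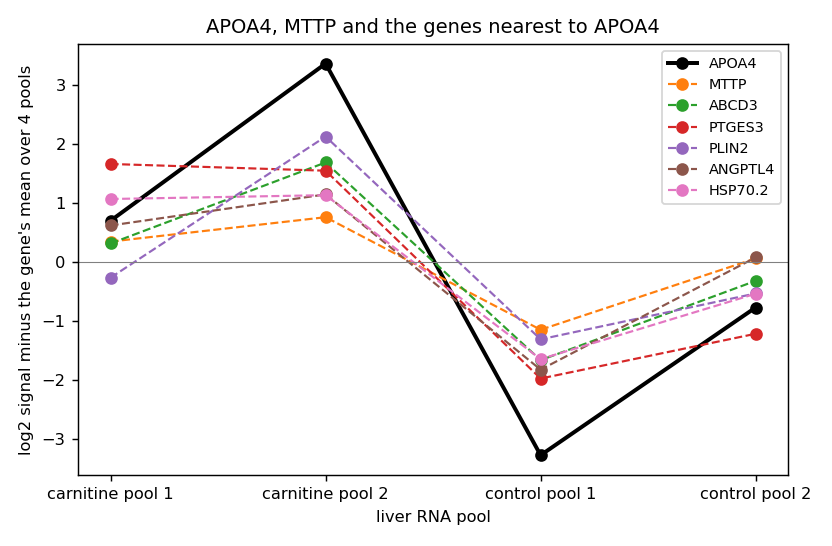
Log2 signal minus each gene's own mean over the 4 liver RNA pools for APOA4 (black), MTTP and the 5 genes nearest to APOA4, with lines only joining the points of a gene. APOA4 runs from -3.28 in control pool 1 to 3.36 in carnitine pool 2, a wider range than any of the other 6 genes.

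Other genes of lipoprotein metabolism were taken from 6 lists, each gene by its brightest probe set, and 0 genes in any list passed the adjusted threshold in the limma fit. Of 18 other apolipoproteins, 5 had a probe set, 4 of them below 0, with a median of -0.054 and 1 past an unadjusted 0.05. That gene was APOD, a lipocalin, with dim signals of 19.3 and 11.4 with carnitine against 31.6 and 85.7 without it (log2 difference -1.81, SE 0.74, adjusted p = 0.560). APOF, an inhibitor of cholesteryl ester transfer, gave 9448 and 10878 against 6799 and 10708, and overlapped. CLU, also named apolipoprotein J, gave 27803 and 28604 against 31679 and 29135, APOO, a mitochondrial protein, 99.5 and 147 against 130 and 121, and the acute-phase SAA2 854 and 989 against 1022 and 873 by its brightest probe set. A further SAA2 probe set was higher in both carnitine pools, at 304 and 566 against 214 and 263 (log2 difference 0.81, adjusted p = 0.586).

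For assembly and secretion of VLDL, the step that MTTP serves, 24 of 41 genes had a probe set, 18 above 0 and 6 below, with a median log2 difference of 0.17. Without overlap, 9 were higher and 4 lower, against 21.9% and 22.0% of all probe sets above the median signal. Past an unadjusted 0.05 were 2 upward and 1 downward, against 4.72% and 3.93% of all probe sets, and these 2 shares apply to the counts of the other lists as well. SEC23A, a coat protein of vesicles leaving the endoplasmic reticulum, gave 2466 and 4421 against 1684 and 2265, a log2 difference of 0.76 (SE 0.31, adjusted p = 0.554). CIDEB, a protein of lipid droplets that takes part in VLDL lipidation, gave 1242 and 2485 against 950 and 1092, a log2 difference of 0.79 (SE 0.33, adjusted p = 0.567). MIA2, a cargo receptor for export, was lower at 2629 and 2555 against 3903 and 3270, as was PEMT, which makes phosphatidylcholine, at 2013 and 1452 against 2476 and 2342.

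Receptors and uptake had 20 of 33 genes measured, 4 above 0 and 16 below (median -0.22), and 0 past an unadjusted 0.05 in limma (2 in the analysis of variance). SDC2, a heparan sulphate proteoglycan, gave 6061 and 5324 against 10220 and 6428, and MYLIP, a ubiquitin ligase that degrades the LDL receptor, 123 and 120 against 147 and 226, both lower in both carnitine pools, though a further SDC2 probe set overlapped (log2 difference -0.17). VLDLR overlapped by its brightest probe set, at 167 and 91.5 against 139 and 372 (log2 difference -0.88), while a further dim one gave -1.37. COMMD9 was lower in both carnitine pools (log2 difference -0.37). Remodelling and lipid transfer had 17 of 27 genes, 4 above 0 and 13 below (median -0.14), and 1 past an unadjusted 0.05. That gene was ANGPTL4, with 1892 and 2726 with carnitine against 348 and 1300 without it, a log2 difference of 1.76 (SE 0.55, adjusted p = 0.460). PON2, a paraoxonase, gave 5226 and 5520 against 6758 and 6273, while PON3 and PLA2G7 overlapped.

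Cholesterol efflux and sterol export had 10 of 19 genes, 1 above 0 and 9 below (median -0.24), and 1 past an unadjusted 0.05 in each direction, against 4.72% and 3.93% of all probe sets. ABCA1, which hands cholesterol to APOA1, was the one above 0, at 650 and 567 against 363 and 434 (log2 difference 0.61, SE 0.23, adjusted p = 0.533). ABCB1, an export pump, was lower at 1026 and 1122 against 1756 and 1373 by its brightest probe set, while its 2 dim ones gave log2 differences of -3.64 and 1.96, and lower too was CYP27A1, the sterol hydroxylase, at 10857 and 9648 against 11995 and 13598. Transcription factors known to act on apolipoprotein genes had 25 of 41 measured, 10 above 0 and 15 below, with a median of -0.050. KLF15 gave 1002 and 729 against 1590 and 1589, lower in both carnitine pools by 0.90 on the log2 scale (SE 0.22, adjusted p = 0.399). FOXA1 gave 826 and 1306 against 632 and 387 (log2 difference 1.07, SE 0.33, adjusted p = 0.446). CEBPA gave 414 and 516 against 215 and 301 by its brightest probe set (log2 difference 0.86, SE 0.28, adjusted p = 0.469), while its other probe set did not show this (log2 difference -0.030) and CEBPB was lower at 2760 and 3241 against 3830 and 4359. HNF4A, a main activator of APOA4, APOB and MTTP in liver, gave 11694 and 11225 against 9821 and 10798 by its bright probe set, a log2 difference of 0.15. Single pools moved these list medians: VLDL assembly was 0.094 without control pool 2, and receptors were -0.36 without carnitine pool 1, -0.094 without carnitine pool 2 and -0.10 without control pool 1. Remodelling was -0.021 without carnitine pool 2 and -0.028 without control pool 1. Sterol export was -0.38 when carnitine pool 1 was left out, -0.047 when carnitine pool 2 was and -0.12 when control pool 1 was. The median changed sign for the other apolipoproteins without carnitine pool 1 (0.067) and for the transcription factors without control pool 2 (0.078).

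**Figure D5:**
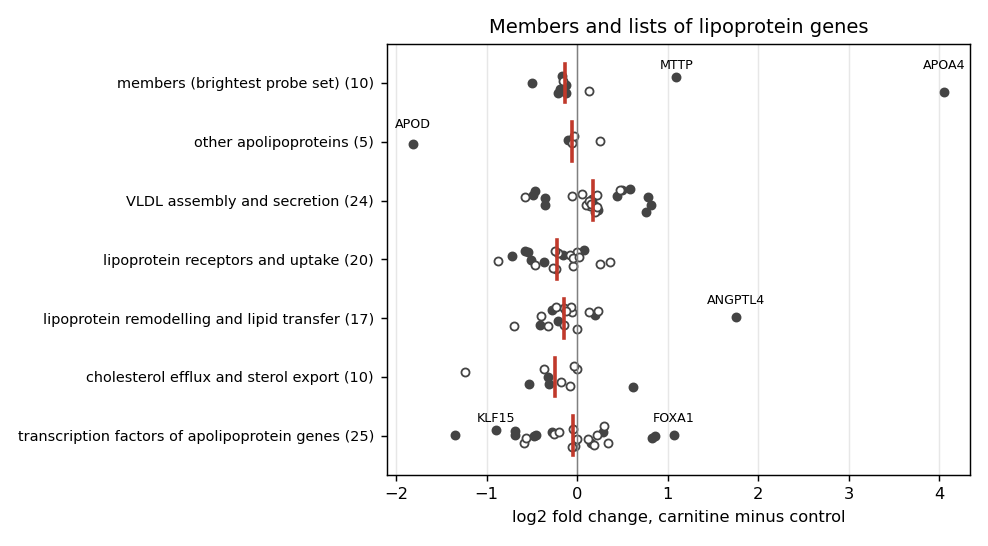
Log2 fold change (carnitine minus control) of each gene by its brightest probe set, for the members and the 6 lists (number of genes in parentheses), with filled points where the diets did not overlap, open points where they did, and a red line at each median. APOA4 lies beyond every gene of the 6 lists, and the list medians lie between -0.24 (sterol export) and 0.17 (VLDL assembly).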

How the data were processed

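Liver RNA of 4 pools was hybridised to Affymetrix porcine GeneChips. The authors deposited MAS5 signal intensities on a linear scale, made per the submitters' processing notes with GCOS 1.1.2, Affymetrix Expression Console 1.1 and MAS5 5.0. Genome build and annotation release are not given in the sources used here. The signals were used as deposited, log2-transformed with a pseudocount of 0. The 124 Affymetrix control probe sets of 24123 were left out, and genes were named from the platform annotation (198 probe sets had several symbols and 13732 none). Diets were compared with limma 3.58.1 (R 4.3.3, lmFit and eBayes with trend), Benjamini-Hochberg adjusted over all 23999 probe sets, with 2 residual degrees of freedom. Intervals are 95%. The labels call the pools biological replicates, and p-values rest on the spread between pools, not between pigs. In limma the spread of each probe set was moderated toward that of probe sets of similar signal. Its SEs, intervals and p-values therefore do not reflect the probe set's own pools alone. Arrays give no read depth, and their number limits precision.

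The members, the 6 pathway lists and the 8 marker lists were chosen with earlier results of these data known. Every member probe set is named, with up to 4 genes per pathway list by smallest unadjusted p, all other apolipoproteins, the neighbours and the 5 genes nearest to APOA4. HNF4A, FABP2 and the other single cell type markers were named outside this rule, after their values were seen. The fit was tested on simulated data. The alternatives were quantile normalization, median centring, a floor at the 25th percentile, an offset of 64, a filter at the median signal, other variance models, analysis of variance, the mean over probe sets, a replicate block and leaving out single pools. Promoter sequences were not analysed here.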

Additional observations from a re-analysis of the deposited data

How the results depend on the processing

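With 2 pools per diet, the 95% intervals of 7 of the 8 other apolipoproteins held 0, and that of APOH did not, although its adjusted p missed the threshold. Over all probe sets, 1 passed an adjusted p of 0.05 in limma, 2 with a floor at the 25th percentile, 3 above the median signal, 0 without a variance trend, 0 by analysis of variance and 0 to 8 when single pools were left out (0 without carnitine pool 1 or carnitine pool 2, 8 without control pool 1, 4 without control pool 2). Of 143 member values under 13 alternatives, 3 changed sign: APOA1 (0.0070) and APOB (0.030) after quantile normalization, and APOM (-0.25) without control pool 1, where its range over omissions reached 0.52. The labels do not say whether the pool numbers pair the diets, and the main fit used no pairing. Across probe sets the pool differences had a correlation of 0.0049, which cannot decide this for single genes. With the replicate block 106 probe sets passed, among them APOA4 (4.05, adjusted p = 5.2e-07), while MTTP did not (adjusted p = 0.0769). That p for APOA4 depends on the pool numbering, by which pool 2 was 6.33 and 5.66 times pool 1 in the carnitine and control diets. The block also leaves fewer residual degrees of freedom than the main fit. Without the block the adjusted p of APOA4 ran from 0.143 to 1.00 over its alternatives, and its log2 difference from 2.72 to 5.38. The count of member probe sets without overlap, 9, was 6 after quantile normalization (2 higher, 4 lower), 7 after median centring (2 higher, 5 lower) and 9 to 11 when single pools were left out. A diet with 1 pool is separated from the other more easily, so the counts under omission cannot be set beside the 9. The share over all probe sets was taken for the signals as deposited only. APOA4 minus the median of the others was 4.22 with the mean over probe sets and 3.97 with the offset. The cause of these shifts was not tested.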
